A study of Homo sapiens with 4 samples.

Results

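Genes of cholesterol and fatty acid synthesis were followed in SK-MEL-28 cells, a human melanoma cell line, with and without induction of the transcription factor MYC. They were taken from a list of 31 gene symbols that covers the route from acetyl-CoA to cholesterol, the synthesis, desaturation and elongation of fatty acids, and the sterol-sensing regulators. All 31 symbols were found among the 25268 symbols of the expression table, each in a single row. The table held RNA-seq of total RNA from 4 libraries, 1 for each condition. The vector line carried an empty lentiviral vector and the MYC-inducible line, called the MYC line from here on, carried MYC under a Tet-inducible promoter. Both lines were stably transduced, were grown with G418, and were sequenced without doxycycline (Dox) and after 54 h with Dox. The vector line with Dox is therefore the control for Dox itself. The sources used here do not say whether either line is a clone or a pool. With 1 library per condition no difference below has a replicate check, so none was tested, and each value describes these 4 cultures.

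Cholesterol is built from acetyl-CoA through mevalonate, isoprenoid units, squalene and lanosterol, and fatty acids are built from the same cytosolic acetyl-CoA through malonyl-CoA. Much of this set of genes is under the control of the SREBP transcription factors, which are made as membrane proteins of the endoplasmic reticulum. When sterols are low, SCAP escorts the SREBPs to the Golgi, where proteases free the part that enters the nucleus, and when sterols are high, INSIG proteins hold the complex back. Since the enzymes share these regulators, their mRNAs often move together. Tumour cells, melanoma cells among them, commonly make their own fatty acids and sterols.

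Promoters of 4 genes are printed because the values of these genes recur in the results. That of SREBF2 also shows a sterol regulatory element-like motif, the kind of element the family is known for. For each gene the 150 bases before the RefSeq start site are given 5′ to 3′ on the gene's own strand, from GRCh38.p14, a different build from the one used for the expression values. Capitals mark a match to TCACNCCAC (a sterol regulatory element-like motif, named SRE-like here), CACGTG (the E-box bound by MYC and by the SREBPs), CCAAT (the CCAAT box) or GGGCGG (the GC box), on either strand.
SREBF2: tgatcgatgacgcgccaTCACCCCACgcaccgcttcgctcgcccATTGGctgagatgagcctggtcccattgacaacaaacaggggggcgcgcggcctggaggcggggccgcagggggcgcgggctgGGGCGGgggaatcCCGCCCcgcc
INSIG1: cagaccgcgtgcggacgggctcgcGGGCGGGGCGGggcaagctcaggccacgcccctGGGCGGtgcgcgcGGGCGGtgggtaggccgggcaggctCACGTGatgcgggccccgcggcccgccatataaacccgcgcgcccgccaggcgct
STARD4: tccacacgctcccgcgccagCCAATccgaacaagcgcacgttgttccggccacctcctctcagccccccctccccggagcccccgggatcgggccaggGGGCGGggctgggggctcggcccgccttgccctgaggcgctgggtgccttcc
ELOVL6: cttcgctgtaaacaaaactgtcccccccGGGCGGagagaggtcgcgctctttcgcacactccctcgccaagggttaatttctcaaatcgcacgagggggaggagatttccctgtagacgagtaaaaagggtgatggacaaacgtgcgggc
The windows are chr22:41832955-41833104 (plus strand) for SREBF2, chr7:155297728-155297877 (plus) for INSIG1, chr5:111512536-111512685 (minus) for STARD4 and chr4:110198616-110198765 (minus) for ELOVL6. SREBF2 holds the SRE-like motif and a CCAAT box close to each other, INSIG1 holds an E-box and 4 GC boxes, a pair of which overlap, STARD4 holds a CCAAT box and a GC box, and ELOVL6 holds a single GC box.

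Expression was given as FPKM, fragments per kilobase of transcript after scaling to a common number of mapped fragments, which scales each gene by its length so that levels can be set side by side between genes. Changes are differences of log2(FPKM + 0.1), a scale that understates the change of low genes, and "rose" and "fell" are used only for a difference of at least 1.5-fold on that scale. Averaged over the 4 libraries all 31 genes reached 1 FPKM, as did 11147 genes in all. The spacing of the lowest values gave approximate depths of 39000000, 35000000, 42000000 and 39200000 fragments for vector without Dox, vector with Dox, MYC line without Dox and MYC line with Dox. Counting errors derived from them were between 0.0138 and 0.26 log2 units for the 31 genes in the MYC line. These errors cover counting only, not differences between cultures.

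The induced gene and the cell identity were looked at before the results. MYC stood at 58.3 and 54.8 FPKM in the vector line without and with Dox and at 76.5 and 87.1 FPKM in the MYC line, so that with Dox it lay at 0.19 on the log2 scale relative to no Dox in the MYC line and at -0.09 in the vector line. MYC did not pass 1.5-fold with Dox in the line that carries the inducible gene, and the untreated MYC-line library already lay 0.39 log2 units above the untreated vector library. Between the libraries with Dox the MYC line lay 0.67 log2 units above the vector line, past 1.5-fold. Whether reads of the introduced MYC were counted in these values is not given in the sources used here, so they are no full measure of induction. The paper reports that Dox raised MYC mRNA, measured by RT-PCR, and E-box reporter activity in the MYC-inducible cells, values that were not analysed here. All 8 melanocyte lineage markers (MITF, PMEL, MLANA, TYR, TYRP1, DCT, SOX10, S100B) were expressed in every library. Their summed level was 8578 and 8467 FPKM in the vector line and 8433 FPKM in the untreated MYC line, but 4666 FPKM in the MYC line with Dox, where 5 of the 8 fell (8.85% of all genes did), and the part of that shift in the changes below was not tested.

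The plainest pattern among the sterol and fatty acid genes lay in the order of the libraries rather than in large changes. In the vector line, 25 of the 31 genes were lower with Dox, against 45.6% of all genes, and the median of their log2 changes was -0.11, against 0.01 over all genes. Between the untreated libraries, 26 of the 31 were higher in the MYC line than in the vector line, against 59.5% of all genes. Their median difference was 0.17, and that of all genes 0.02. The vector library with Dox was the lowest of the 4 for 20 of the 31 genes (20.5% of all genes) and the untreated MYC-line library was the highest for 17 (25.1% of all genes). Both orders held together for 13 of the 31 genes and for 5.1% of all genes. These counts read the same 4 libraries and are not independent of each other, and they take no account of size: for MVD and LSS the vector libraries with and without Dox lay within a counting error of each other. Approximate depth was also lowest in the vector library with Dox (35000000 fragments) and highest in the untreated MYC-line library (42000000). FPKM are scaled for depth, but with 4 libraries these orders cannot be told apart, and a part of depth was not tested. Of the 31 changes with Dox, 15 exceeded 3 counting errors in the vector line, 14 of them lower and 1 (SREBF1) higher. For the MYC line the number was 21, 13 lower and 8 higher. Passing this bar sets the libraries apart and not the conditions. How many of all genes pass it was not counted, so whether the 31 stand out by it was not tested. The robust standard deviation of the changes over all genes was 0.107 (vector line) and 0.36 (MYC line) log2 units.

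**Figure D1:**
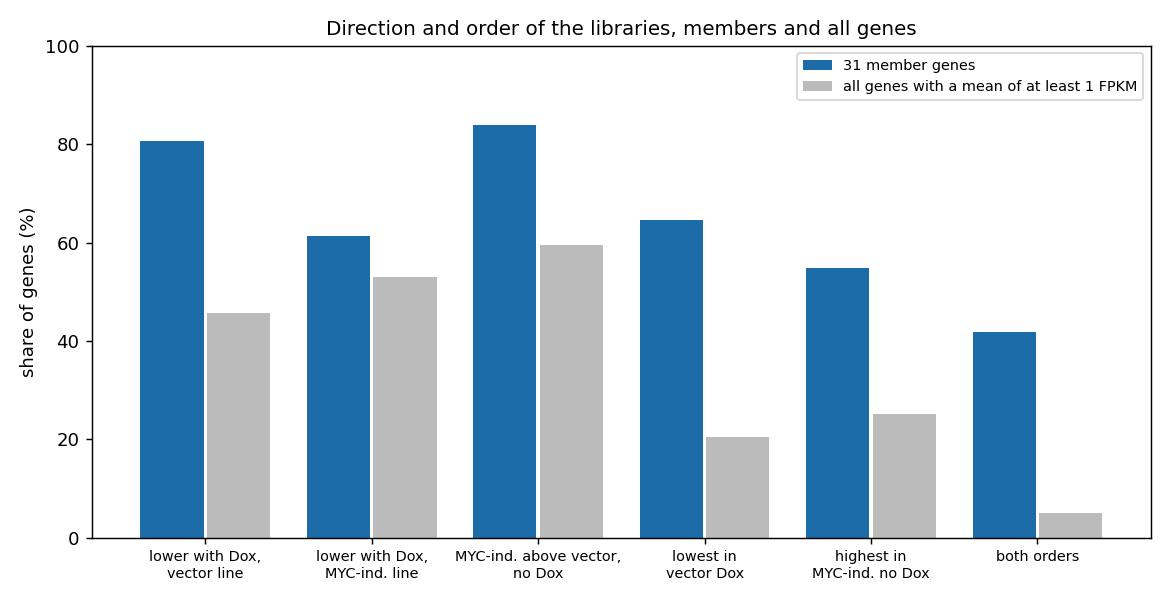
Share of genes in percent for 6 patterns of direction or order among the 4 libraries; blue bars are the 31 sterol and fatty acid genes and grey bars the 11147 genes that reach 1 FPKM on average. The blue bar is above the grey bar in each pair, with 20 of the 31 genes lowest in the vector library with Dox against 20.5% of all genes.

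With Dox in the MYC line, where 53.1% of all genes were lower, 19 of the 31 genes were lower and 12 higher, and the median of the 31 log2 changes was -0.08, beside -0.03 over all genes. ACACA rose, and TM7SF2, STARD4, ACSS2 and FADS2 fell, while over all genes 5.9% rose and 8.85% fell. In the vector line none of the 31 rose or fell, where 0.709% of all genes rose and 0.44% fell. Against the vector line with Dox, the MYC line with Dox was higher for 25 of the 31 genes and for 49.2% of all genes. In that comparison HMGCS1, DHCR7, ACACA and ELOVL6 were higher by at least 1.5-fold (6.5% of all genes were) and TM7SF2 was lower by at least 1.5-fold (8.62% of all genes were). Between the untreated libraries none of the 31 passed 1.5-fold in either direction, where 0.592% of all genes passed it upwards and 0.287% downwards. The comparisons share libraries: the MYC-line library with Dox enters both the change within its line and the comparison with the vector line with Dox. The summed level of the 31 genes was 1010, 935, 1107 and 1064 FPKM in vector without Dox, vector with Dox, MYC line without Dox and MYC line with Dox.

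**Figure D2:**
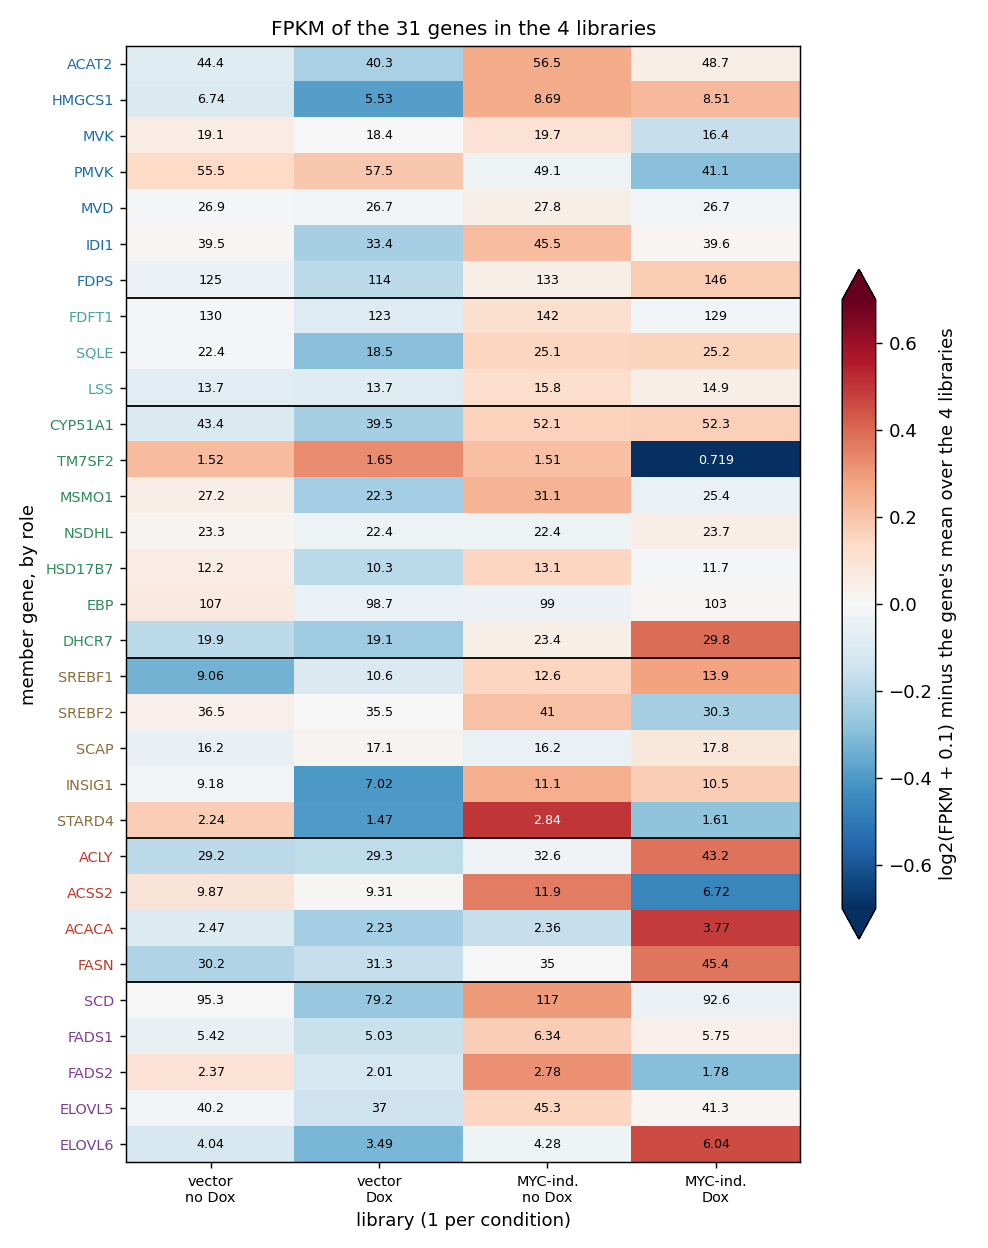
Each cell gives the FPKM of a gene in 1 of the 4 libraries, and its colour the log2(FPKM + 0.1) minus the gene's mean over the 4 libraries (blue below, red above; values past the ends of the colour bar take the end colour). Gene names are coloured and separated by lines by role, and blue prevails in the column of vector with Dox, which was the lowest library for 20 of the 31 genes.

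The mevalonate branch, from acetyl-CoA to farnesyl diphosphate, held 7 of the genes, and none rose or fell with Dox in either line. The median log2 change of the branch was -0.20 in the MYC line and -0.14 in the vector line. HMGCS1, which makes HMG-CoA, was at 6.74 and 5.53 FPKM in the vector line without and with Dox and at 8.69 and 8.51 FPKM in the MYC line. With Dox its log2 value differed by -0.28 in the former line and by -0.03 in the latter, so that the gap between the lines with Dox was 0.61 log2 units. ACAT2, the cytosolic thiolase that condenses acetyl-CoA, went from 44.4 to 40.3 FPKM in the vector line and from 56.5 to 48.7 FPKM in the MYC line, lower with Dox in both. IDI1, which interconverts the isoprenoid building blocks, likewise went from 39.5 to 33.4 FPKM and from 45.5 to 39.6 FPKM.

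The kinases of the branch were lowest in another library than the rest. MVK, which phosphorylates mevalonate, stood at 19.1 and 18.4 FPKM in the vector line and at 19.7 and 16.4 FPKM in the MYC line. PMVK, the next kinase, was the only gene of the branch above its untreated value in the vector line with Dox, at 55.5 and 57.5 FPKM, and it had values of 49.1 and 41.1 FPKM in the MYC line. For both kinases the MYC-line library with Dox was the lowest of the 4. MVD, which decarboxylates the product of PMVK, had nearly level values of 26.9, 26.7, 27.8 and 26.7 FPKM over vector without Dox, vector with Dox, MYC line without Dox and MYC line with Dox. FDPS, the synthase of farnesyl diphosphate, was at 125 and 114 FPKM in the vector line and at 133 and 146 FPKM in the MYC line, a log2 change of -0.14 in the former and 0.14 in the latter. It was the only gene of the branch that was highest in the MYC-line library with Dox. FDPS and IDI1 have processed pseudogene copies whose reads the authors' counting could have split, and the 1 copy listed, FDPSP2, was near 0 FPKM in all 4 libraries. ACAT2 shares up to 454 exon bases with TCP1 on the opposite strand, which had a mean of 139 FPKM, so reads of TCP1 could enter its value if strand was not used.

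All 3 genes that lead from farnesyl diphosphate to lanosterol were lowest in the vector library with Dox. FDFT1, squalene synthase, was at 130 and 123 FPKM in the vector line and at 142 and 129 FPKM in the MYC line, lower with Dox in both. SQLE, squalene epoxidase and a rate-limiting enzyme of the pathway, was at 22.4 and 18.5 FPKM in the vector line but at 25.1 and 25.2 FPKM in the MYC line. Its log2 change was thus -0.27 in the former and 0.01 in the latter, much as for HMGCS1. LSS, which cyclises squalene epoxide, was at 13.7 FPKM in both vector libraries and at 15.8 and 14.9 FPKM in the MYC line.

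Of the 7 genes that turn lanosterol into cholesterol, TM7SF2 fell with Dox in the MYC line and none rose. TM7SF2, a sterol reductase at chr11:64879317-64883856 in GRCh37 (plus strand), was at 1.52 and 1.65 FPKM in the vector line and at 1.51 and 0.719 FPKM in the MYC line. Its log2 change was -0.97 with a counting error of 0.26 in the MYC line and 0.11 with an error of 0.21 in the vector line. It was the lowest of the 31 genes in level, with about 99.9 fragments in the untreated MYC-line library and 44.5 with Dox. Its exons overlap those of VPS51 on the same strand by 18 bases, and VPS51 had a mean of 18.7 FPKM. DHCR7, the reductase that makes cholesterol itself, was the gene of this stretch with the highest log2 change in the MYC line, 0.35 (counting error 0.039), from 23.4 to 29.8 FPKM. In the vector line it was at 19.9 and 19.1 FPKM, so that it passed 1.5-fold between the lines with Dox and not within the MYC line.

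None of the other 5 genes of this stretch rose or fell with Dox in either line. CYP51A1, the lanosterol demethylase, was at 43.4 and 39.5 FPKM in the vector line and at 52.1 and 52.3 FPKM in the MYC line. MSMO1, which oxidises the sterol methyl groups, was lower with Dox by nearly the same ratio in both lines, from 27.2 to 22.3 FPKM and from 31.1 to 25.4 FPKM, and both log2 changes came to -0.29. HSD17B7, a sterol ketoreductase, was at 12.2 and 10.3 FPKM and at 13.1 and 11.7 FPKM. EBP, a sterol isomerase, was at 107 and 98.7 FPKM in the vector line, a log2 difference of -0.11 (counting error 0.031), and at 99.0 and 103 FPKM in the MYC line. These 4 genes and DHCR7, 5 of the 7 of this stretch, were lowest in the vector library with Dox. NSDHL, a sterol dehydrogenase, lay between 22.4 and 23.7 FPKM in all 4 libraries. A copy of HSD17B7 annotated as a long non-coding RNA, HSD17B7P2, was listed at 1.30, 1.21, 0.977 and 1.22 FPKM over the 4 libraries in the same order as before. CYP51A1 and HSD17B7 also have processed pseudogene copies that were not listed. CYP51A1 shares up to 1685 exon bases with a further annotated gene on the same strand, also not listed, so its reads could have been split.

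Among the regulators, neither the genes for the SREBPs nor that for their escort was lowest in the vector library with Dox. SREBF1, which encodes the SREBPs known for fatty acid genes, was at 9.06 and 10.6 FPKM in the vector line and at 12.6 and 13.9 FPKM in the MYC line. SREBF1 was thus higher with Dox in both lines, by 0.23 and 0.13 log2 units, while 25 of the 31 genes were lower with Dox in the vector line. SREBF2, which encodes the SREBP known for cholesterol genes, was at 36.5 and 35.5 FPKM in the vector line and at 41.0 and 30.3 FPKM in the MYC line, a log2 change of -0.44 (counting error 0.024) in the latter. SCAP, the escort and sterol sensor, was between 16.2 and 17.8 FPKM in all 4 libraries. SREBF1 shares up to 442 exon bases with RAI1 on the opposite strand, and whether the counting used strand was not given in the sources used here.

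INSIG1 and STARD4 had the lowest changes of the set in the vector line. Much of the set is under SREBP control, so this control does not single them out. Log2 changes of the set in the vector line ran from -0.57 (STARD4) to 0.23 (SREBF1), 25 lower and 6 higher. A part of the SREBPs in these changes was not tested. INSIG1, the retention protein that SREBP itself induces, was at 9.18 and 7.02 FPKM in the vector line, a log2 change of -0.38 (counting error 0.07), and at 11.1 and 10.5 FPKM in the MYC line, a change of -0.08. STARD4, a cytosolic sterol carrier at chr5:110831731-110848288 in GRCh37 (minus strand), was at 2.24 and 1.47 FPKM in the vector line and at 2.84 and 1.61 FPKM in the MYC line. Its log2 change was -0.57 (counting error 0.12) in the vector line, just short of 1.5-fold on this scale, and -0.78 (error 0.10) in the MYC line, where it fell. With 0.01 FPKM added in place of 0.1 the vector-line change was -0.598, past 1.5-fold, so this call does not set the lines apart. Both Dox libraries of STARD4 thus lay below both untreated ones, and the difference between its changes in the 2 lines, -0.21 log2 units, was smaller than either change. It is the only one of the 4 genes that fell in the MYC line whose vector-line change also came near 1.5-fold.

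**Figure D3:**
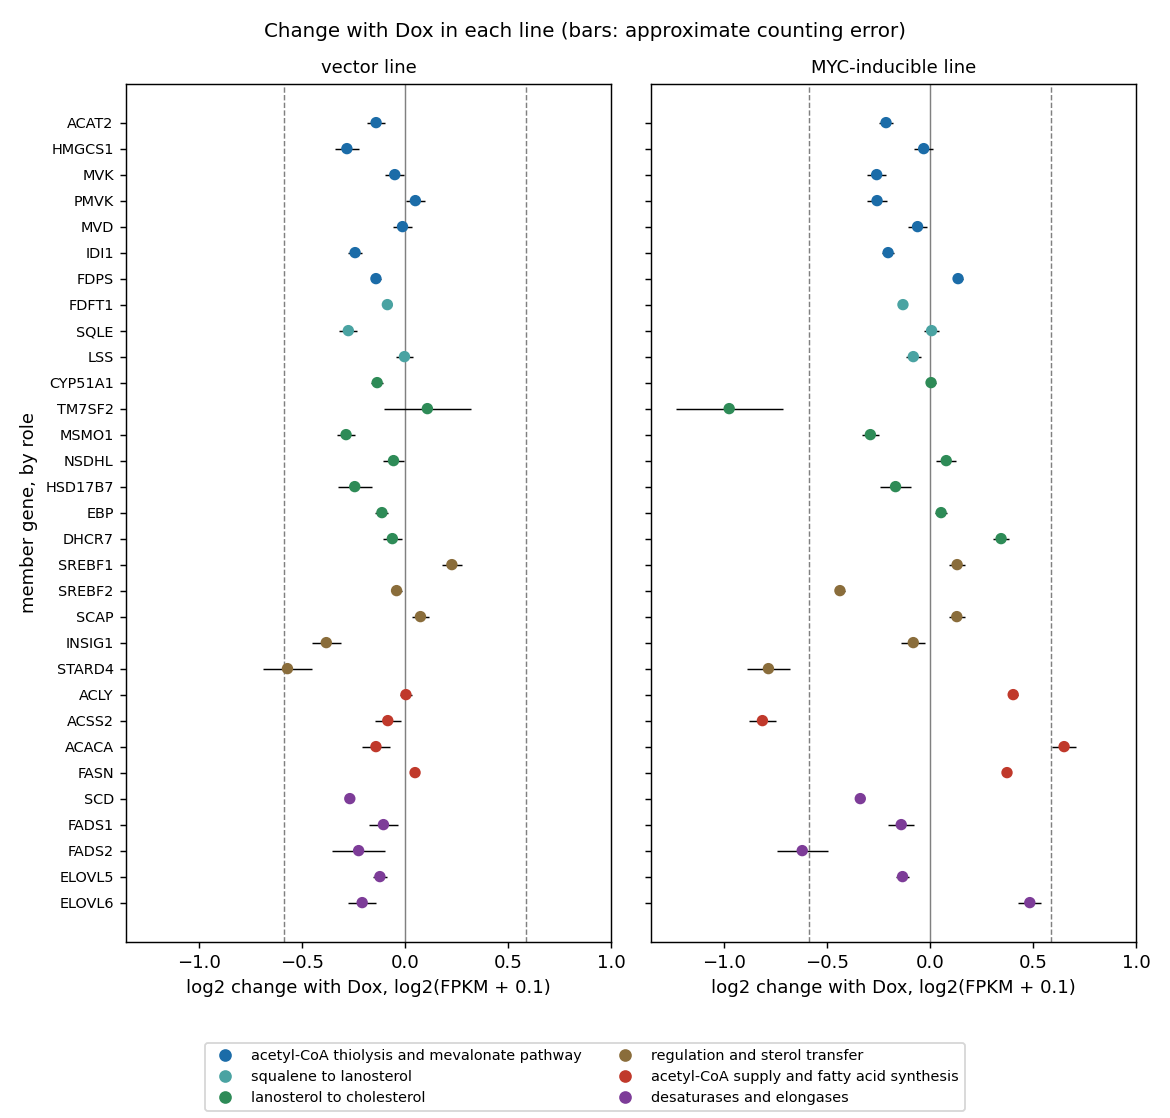
Log2 change with Dox, on the log2(FPKM + 0.1) scale, of each of the 31 genes in the vector line (left) and in the MYC line (right), coloured by role; horizontal bars are 1 approximate counting error either side, solid lines mark no change and dashed lines 1.5-fold. In the vector line all points lie between the dashed lines and 25 of 31 lie left of 0, while in the MYC line ACACA lies past the right dashed line and TM7SF2, STARD4, ACSS2 and FADS2 past the left.

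The 4 genes of acetyl-CoA supply and fatty acid synthesis split into 3 that were highest in the MYC-line library with Dox and ACSS2, which was lowest there. The median of their log2 changes was 0.39 in the MYC line and -0.04 in the vector line, the only role group with a median above 0.1 in the MYC line. ACACA, acetyl-CoA carboxylase and the committed step of fatty acid synthesis, at chr17:35441927-35766927 in GRCh37 (minus strand), was at 2.47 and 2.23 FPKM in the vector line and at 2.36 and 3.77 FPKM in the MYC line. It rose in the MYC line with a log2 change of 0.65 (counting error 0.059), against -0.14 in the vector line. ACLY, which splits citrate into cytosolic acetyl-CoA, was at 29.2 and 29.3 FPKM in the vector line and at 32.6 and 43.2 FPKM in the MYC line, a ratio of 1.32 in the latter. FASN, the fatty acid synthase that makes palmitate, was at 30.2 and 31.3 FPKM and at 35.0 and 45.4 FPKM, a ratio of 1.30 in the MYC line. For each of the 3 the MYC-line library with Dox stood above the other three, although ACLY and FASN stayed short of 1.5-fold.

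ACSS2 makes acetyl-CoA from acetate, the other source of the same substrate, and went the opposite way to ACLY. It lies at chr20:33459949-33515765 in GRCh37 (plus strand) and was at 9.87 and 9.31 FPKM in the vector line and at 11.9 and 6.72 FPKM in the MYC line. It fell there, with a log2 change of -0.81 (counting error 0.065), against -0.08 in the vector line. At these levels ACSS2 was the only gene of the 31 that still passed 1.5-fold when 1 FPKM was added in place of 0.1.

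**Figure D4:**
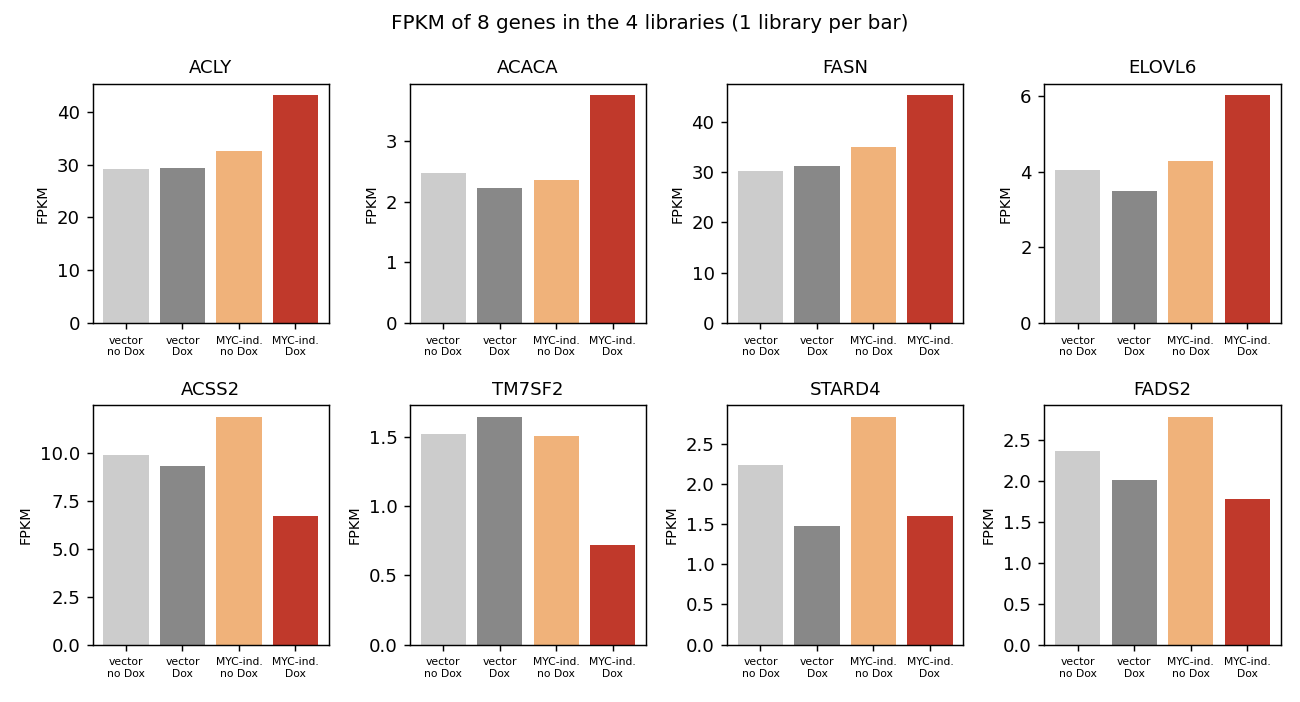
FPKM of 8 genes, 1 bar per library and no error bars since each condition has 1 library; grey bars are the vector line and orange and red bars the MYC line, and each panel has its own axis from 0. ACLY, ACACA, FASN and ELOVL6 (top) are highest in the MYC-line library with Dox, at 43.2, 3.77, 45.4 and 6.04 FPKM, while ACSS2, TM7SF2 and FADS2 are lowest there and STARD4 (bottom) is lower with Dox in both lines.

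Of the 5 desaturases and elongases, 4 were lower with Dox in the MYC line and all 5 in the vector line. The median of their log2 changes was -0.14 in the former and -0.21 in the latter. SCD, which makes monounsaturated fatty acids, was the most highly expressed of them, at 95.3 and 79.2 FPKM in the vector line and at 117 and 92.6 FPKM in the MYC line. The log2 changes of SCD were -0.27 and -0.34, both many times its counting errors of 0.016 and 0.014. SCD also has a processed pseudogene copy, SCDP1, that was not listed. ELOVL5, an elongase of polyunsaturated fatty acids, was at 40.2 and 36.99 FPKM and at 45.3 and 41.3 FPKM, and FADS1, a desaturase of polyunsaturated fatty acids, at 5.42 and 5.03 FPKM and at 6.34 and 5.75 FPKM. SCD, ELOVL5 and FADS1 shared the order in which vector with Dox was lowest and the untreated MYC-line library highest.

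FADS2, the neighbouring desaturase at chr11:61560452-61634826 in GRCh37 (plus strand), was at 2.37 and 2.01 FPKM in the vector line and at 2.78 and 1.78 FPKM in the MYC line. It fell in the MYC line with a log2 change of -0.62 (counting error 0.12), and was at -0.22 (error 0.13) in the vector line. Its exons overlap those of FADS1 on the opposite strand by up to 165 bases and those of FEN1 on the same strand by 49 bases, and FEN1 had a mean of 78.7 FPKM, so the value of FADS2 could include reads of its neighbours. ELOVL6, the elongase that takes palmitate to stearate and so acts directly after FASN, went with the fatty acid synthesis genes and not with the other elongase. It lies at chr4:110967002-111120355 in GRCh37 (minus strand) and was at 4.04 and 3.49 FPKM in the vector line and at 4.28 and 6.04 FPKM in the MYC line. The log2 change of ELOVL6 was 0.48 (counting error 0.056) in the MYC line, short of 1.5-fold, and -0.21 in the vector line, and it passed 1.5-fold between the lines with Dox with 0.77.

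The promoters of the family were then read for the motifs printed above. RefSeq windows of GRCh38.p14 were matched for 27 of the 31 genes (ACAT2, FASN, FDFT1 and SQLE were not matched), 7 of which had several start sites, and the 250 bases before each start were searched on both strands. CCAAT was found for 20 of the 27 genes (74.1%), against 42.5% of the 8381 genes in the table that reached 1 FPKM on average and 37% of all 27305 genes in it. GGGCGG was found for 25 of the 27 (92.6%), against 76.2% and 46.2%. CACGTG was found for 3 (11.1%), ELOVL5, INSIG1 and SCAP, against 11.8% and 7.73%. TCACNCCAC was found for SREBF2 alone (3.70%), against 1.17% and 1.09%. Other spellings or positions of a sterol regulatory element were not searched, so the lack of this match does not show that a gene has none. None of ACACA, ACLY, ELOVL6, TM7SF2, STARD4, ACSS2 and FADS2 held CACGTG in these windows. These genes were picked by their changes with Dox. With CACGTG in only 11.8% of the genes that reached 1 FPKM, its absence from so few genes says little about them. A match is a run of letters and not a bound site, and the CCAAT box and GC box are short motifs common in promoters of expressed genes.

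**Figure D5:**
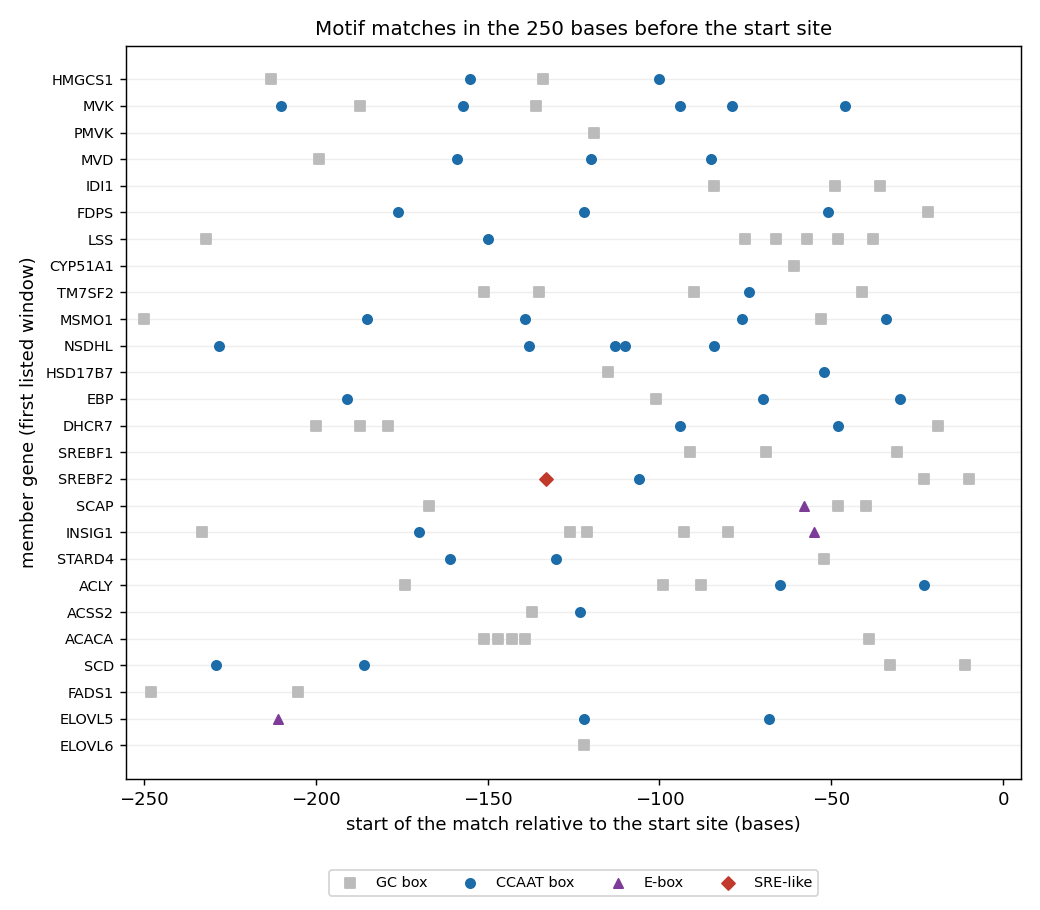
Start of each motif match relative to the start site, in bases, for the genes with a RefSeq promoter window; where a gene has several windows the one listed first is drawn, and FADS2, with no match in its first window, has no row. The SRE-like match (red diamond) is drawn for SREBF2 alone and the E-box (purple triangle) for ELOVL5, INSIG1 and SCAP, while grey squares (GC box) and blue circles (CCAAT box) fill most other rows.

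Genes around the pathway that were not among the 31 were read from 5 further lists. None of their members rose or fell with Dox in the vector line, where 0.709% of all genes rose and 0.44% fell. In the MYC line, the background for the genes named below, 5.9% of all genes rose and 8.85% fell. The SREBP proteases and regulators had a median log2 change of -0.11 with Dox in the MYC line. Of 10 other isoprenoid genes, PDSS1, which makes the side chain of coenzyme Q, rose in the MYC line from 9.23 to 14.5 FPKM, with a list median of 0.03. Of 18 other genes of fatty acid synthesis and activation, MCAT, of mitochondrial fatty acid synthesis, rose from 19.3 to 36.2 FPKM, and ME1, malic enzyme and a source of NADPH, rose from 9.85 to 14.9 FPKM. In the same list ACSL3, an acyl-CoA synthetase, fell from 63.6 to 41.0 FPKM and ELOVL7, an elongase, fell from 3.19 to 1.98 FPKM, and the median was -0.08.

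Sterol export and handling had medians of -0.22 (MYC line) and 0.01 (vector line) on the log2 scale over the 10 of 12 genes above the minimum. NPC2, the lysosomal sterol carrier, fell in the MYC line from 287 to 140 FPKM, while it was at 297 and 304 FPKM in the vector line. Its partner NPC1 was at 15.8 and 22.8 FPKM in the vector line and at 16.6 and 12.2 FPKM in the MYC line, short of 1.5-fold in each and in opposite directions. Fatty acid oxidation, 14 of 15 genes above the minimum, had none that rose or fell in the MYC line, where 5.9% of all genes rose and 8.85% fell. Its median was 0.07, and its largest log2 changes were -0.49 for ACADVL and 0.33 for ECI2, a dehydrogenase and an isomerase of that pathway.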

How the data were processed

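Total RNA was extracted with an RNeasy kit and sequenced on an Illumina HiSeq4000. The authors deposited FPKM per gene for the 4 libraries in a single table, without counts. The submitters' processing notes name TopHat2 2.0.14 and Cufflinks, with no role given, and hg19. The gene annotation and the use of strand were not given in the sources used here. Of 27032 rows, 1 with an empty name was dropped, and 609 symbols with several rows were summed (none of the 31). Every value column belonged to a library of the study.

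Changes are differences of log2(FPKM + 0.1) over the 11147 genes that averaged 1 FPKM or more, and a gene was called at 1.5-fold. Taking differences and calling at 1.5-fold were tested on simulated data, while summing FPKM per symbol was not. With 1 library per condition no test was made. The depth of the libraries relative to each other was approximated from genes with values under 0.05 FPKM. Absolute depth was approximated from the steps of low values in 137 genes with transcripts of at least 1500 bases (quartiles of the estimates 32900000 and 40800000 fragments). Counting errors were derived from depth and from GENCODE 44 transcript lengths on GRCh37. Every one of the 31 genes is named, and of each further list the genes past 1.5-fold with Dox in the MYC line, or else the 2 with the largest absolute change. A result of the SREBP regulator list is not reported here. The 31 genes and all lists were chosen with earlier results of these data known. Alternatives changed the pseudocount, the filter, the scaling, the reference library, the fold threshold and the average of a list. Scripts ran in Python 3.11.15 with numpy 2.4.6, pandas 2.3.3 and matplotlib 3.10.9.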

Additional observations from a re-analysis of the deposited data

Results flagged for a closer look

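A set of 9 genes had log2 changes with Dox of opposite sign in the 2 lines, each larger than 0.107, the robust standard deviation of the vector-line change over all genes; whether the lines differ was not tested. Among the 31 genes these were TM7SF2 (-0.97 in the MYC line and 0.11 in the vector line), ACACA (0.65 and -0.14), ELOVL6 (0.48 and -0.21) and FDPS (0.14 and -0.14). Among the further lists they were NPC1 (-0.45 and 0.52), NR1H2, a sterol-sensing nuclear receptor (-0.34 and 0.16), TMEM97, which binds NPC1 (0.15 and -0.23), FNTA, a subunit of farnesyltransferase (0.12 and -0.13), and ACSL1, an acyl-CoA synthetase (0.16 and -0.14). ACACA, ELOVL6 and FDPS were highest in the MYC-line library with Dox and lowest in the vector library with Dox.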

How the results depend on the processing

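No paired analysis was possible because a single library stands for each condition, and for the same reason none could be left out. Of 328 recalculated counts and medians, 289 stayed within the limits set for them. The causes of the others were not tested, apart from what each setting does by construction. Adding 1 FPKM in place of 0.1 left 0 of the 31 genes risen and 1 fallen (ACSS2) in the MYC line, and 43 risen and 22 fallen of all genes in the vector line; adding 0.01 gave 1 fallen of the 31 in the vector line, as did scaling to the same sum and to the upper quartile (STARD4). Without a filter, 1138 genes rose and 1748 fell in the MYC line and 529 and 387 in the vector line. The median of sterol export and handling was then -0.094. With a minimum of 5 FPKM, the counts were 436 and 549, and 25 and 8, with 0 of the 31 risen and 1 fallen in the MYC line and a median of -0.34 for sterol export. At 2-fold, 0 of the 31 rose or fell, and of all genes 117 rose and 228 fell in the MYC line and 28 and 15 in the vector line. Against the vector line with Dox, 4 of the 31 rose and 1 fell, and the median was 0.19, by role 0.24 (mevalonate), 0.12 (squalene to lanosterol), 0.17 (lanosterol to cholesterol), 0.12 (regulation), 0.55 (fatty acid synthesis) and 0.19 (desaturases and elongases), with 0.0068 for the SREBP proteases and regulators and 0.14 for other isoprenoid genes; STARD4 turned from -0.78 to 0.12. Means in place of medians gave -0.13 for lanosterol to cholesterol, -0.21 for regulation and 0.15 for fatty acid synthesis. Under 3 other scalings, added after the data were seen, the vector library with Dox was lowest for 20 to 21 of the 31 genes and the untreated MYC-line library highest for 17 to 19. The background moved as well. With scaling to the same sum, the counts over all genes went from 2282 to 2746 for the former order and from 2799 to 3693 for the latter. Of the 31 genes, TM7SF2, FADS2 and STARD4 rest on the fewest fragments, TM7SF2 above all. ACACA, also low in FPKM but with a long transcript, had about 993 and 1478 fragments in the MYC line without and with Dox.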
